A study of Homo sapiens with 6 samples.

Results

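The genes described here are 10 members of the FOXO pathway: the forkhead transcription factors FOXO1, FOXO3 and FOXO4, and INSR, IRS1, IRS2, SESN3, TXNIP, KLHL24 and CCNG2, genes known as FOXO targets. They were found by their Ensembl identifiers among the 39327 rows of the count table that carry one. Of the 10 genes, 9 had a matching row and 8 had enough reads to be among the 12821 genes tested. The identifier that the reference table pairs with TXNIP matched no row. Rows under other identifiers were not assigned to TXNIP, which was therefore not analysed here. SESN3 was measured but lay below the filter on low counts.

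RNA-seq was performed on CAL62, an established cell line of anaplastic thyroid carcinoma (ATC) that the labels give as wild type. Cells were treated for 48 h with 50 nM erianin, the compound under study, or with DMSO, its solvent, and there were 3 libraries in each group. Nothing in the labels says whether the libraries of a group came from separate cultures, so the p-values measure only the spread between these libraries, which may be technical. No other line was sequenced.

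FOXO factors are transcription factors held in check by insulin and growth factor signaling. When PI3K makes its lipid messenger, AKT and the related SGK kinases phosphorylate FOXO proteins, which are then bound by 14-3-3 proteins and kept out of the nucleus. When this signaling is low, FOXO proteins enter the nucleus and activate genes of cell cycle arrest, stress resistance and metabolism, and also genes of the insulin pathway itself, such as INSR and IRS2. This control acts on the protein, which RNA-seq does not measure.

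Between 25776301 and 34107727 reads per library were counted on named genes. Levels of 1 gene between libraries are given as CPM, counts scaled to the TMM-adjusted library size, and levels between genes as the deposited TPM, which also divides by gene length. DMSO replicate 3 lay apart from the other libraries of its group. Its Euclidean distance in log2 CPM to the other DMSO libraries was 62.9 to 64.1, against 37.2 between DMSO replicates 1 and 2 and 28.2 to 29.0 among the erianin libraries. edgeR's common estimate of the spread between libraries, a coefficient of variation, fell from 0.139 to 0.0421 when that library was left out. The number of members called and the results of FOXO1, FOXO3 and KLHL24 are therefore given both ways. Most other results are given with all 6 libraries only. Of 8 thyroid follicular markers, 3 (PAX8, FOXE1 and HHEX) reached a mean of 1 CPM, while TSHR and NKX2-1 were at 0 counts in every library. The summed CPM of the 8 thyroid markers was 677 to 780 in the DMSO libraries and 463 to 476 in the erianin libraries, most of it PAX8, which was called lower (log2 fold change -0.66; edgeR, adjusted p = 0.00404), while HHEX (0.20; adjusted p = 0.189) and FOXE1 (0.03; adjusted p = 0.963) did not pass. Of the epithelial markers 4 of 5 and of the mesenchymal markers 3 of 3 reached 1 CPM, and of the leukocyte and endothelial markers 0 of 3 each did. The summed CPM of the mesenchymal markers was 6474 to 8389 with DMSO and 4073 to 4620 with erianin, with FN1 called lower (log2 fold change -0.80; edgeR, adjusted p = 0.00761), and that of the epithelial markers was 2312 to 3131 and 2520 to 2689. The part of these marker differences in the results was not tested.

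To see which FOXO pathway genes differed in erianin-treated cells, the counts of all genes were compared between groups with edgeR's quasi-likelihood test. A gene was called if its Benjamini-Hochberg adjusted p lay under 0.05 and its log2 fold change beyond 0.5 in either direction. CCNG2 was the 1 member called higher with erianin, by 47.1%. KLHL24 was higher, and IRS1 and INSR were lower, at an adjusted p under 0.05 with a fold change under the threshold. FOXO1, FOXO3, FOXO4 and IRS2 did not pass the test. Because the RNA came from whole cultures, fewer cells that express a gene and less of its RNA per cell cannot be told apart.

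The called genes made up 8.73% of all genes tested, 5.37% called higher and 3.36% called lower, and 1 of the 8 tested members was called. With the adjusted p alone, 14.9% of all genes passed, 7.22% higher and 7.69% lower, and 4 of 8 members did, 2 in each direction. No member was called lower, 0 of 8 by edgeR and 0 by DESeq2 (3.62% of all genes by DESeq2). In that direction 2 members had an unadjusted p under 0.05 by edgeR, as did 15.6% of all genes. Among the 8 tested members, the CPM of 3 was higher in every erianin library than in every DMSO library, and that of 2 lower, where 38.7% of all genes did not overlap, 19.5% higher and 19.3% lower. The 8 members had a median log2 fold change of 0.17, against 0.00 over all genes tested.

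How many members were called higher depended on the fit. DESeq2 called 1 as well, where it called 5.75% of all genes higher. Without DMSO replicate 3 the members called higher numbered 3, CCNG2, KLHL24 and FOXO1, where 11.4% of all genes were called higher. There were 3 by limma on log2(TPM + 1) values (9.41% of all genes), with FOXO3 in place of FOXO1, and 2 with upper-quartile factors (6.41%). On the log2(TPM + 1) values the median log2 fold change of all genes was itself 0.18, against 0.00 by edgeR. With the GC trend of each library removed 0 members were called by edgeR, against 5.23% of all genes called higher. When DMSO replicate 3 was left out as well 0 were, against 6.88%. By the adjusted p alone 2 of 8 and 4 of 9 members were higher in these 2 fits, and 2 were lower in each. The share of all genes was not counted for them, so these counts cannot be judged as many or few. Without DMSO replicate 3 and with the GC trend kept, 55.2% of all genes passed the adjusted p in either direction, a share that does not apply to the fits with the trend removed.

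**Figure D1:**
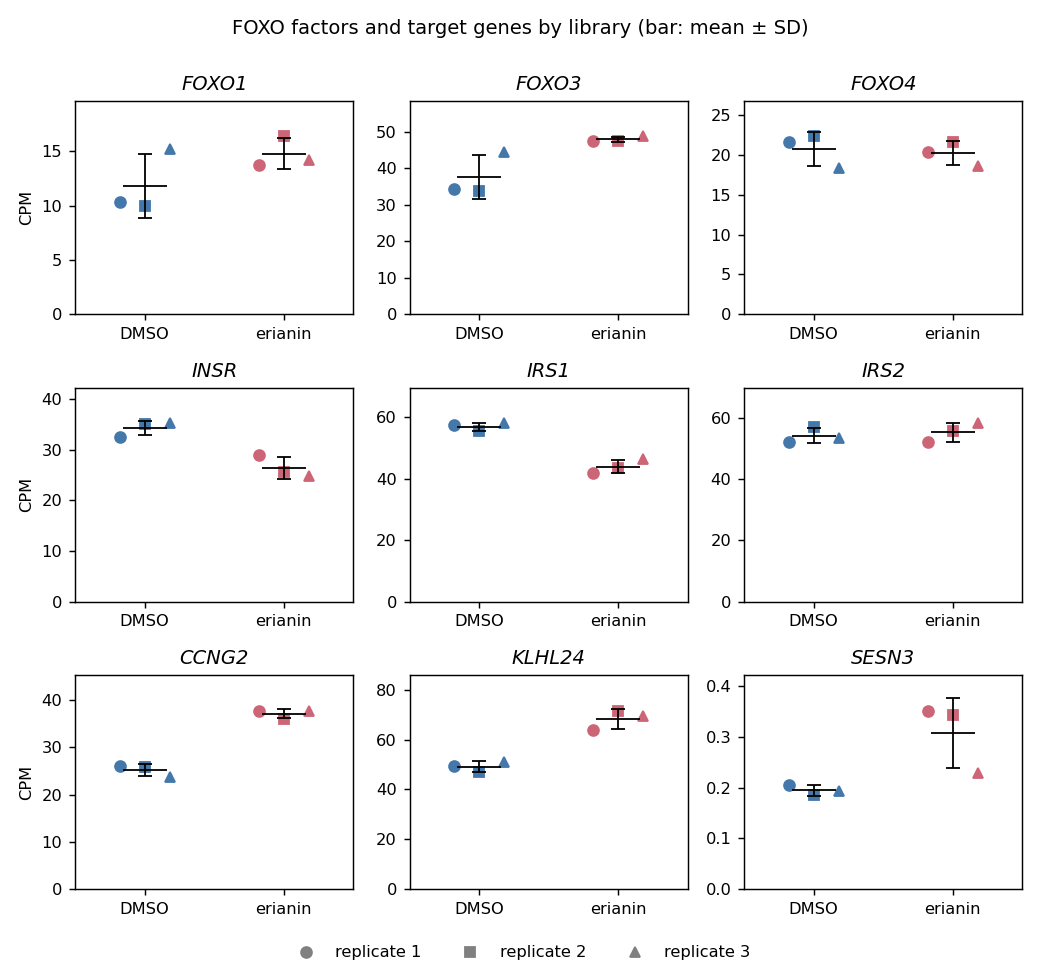
CPM (y axis, from 0) of the 9 measured genes in the 3 DMSO (blue) and 3 erianin (red) libraries, with symbols for the replicate and bars for the mean and SD. CCNG2, KLHL24, FOXO3 and the barely detected SESN3 lie higher in all erianin libraries and IRS1 and INSR lower, while FOXO1 of DMSO replicate 3 lies at 15.3 CPM among the erianin values.

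The promoters of the 4 members with an adjusted p under 0.05 are shown because 2 of them were higher and 2 lower with erianin. Each is the 250 bases before the RefSeq start site on GRCh38.p14, written 5′ to 3′ on the gene's strand, with every AAACA or its reverse complement TGTTT, the core letters of the FOXO recognition motif, in capitals.
CCNG2, chr4:77156957-77157206, plus strand: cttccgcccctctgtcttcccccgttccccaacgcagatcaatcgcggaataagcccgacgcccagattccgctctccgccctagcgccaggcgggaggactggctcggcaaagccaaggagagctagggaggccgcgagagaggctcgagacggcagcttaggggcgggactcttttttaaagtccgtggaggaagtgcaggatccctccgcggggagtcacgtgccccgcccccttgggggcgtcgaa
KLHL24, chr3:183635373-183635622, plus strand: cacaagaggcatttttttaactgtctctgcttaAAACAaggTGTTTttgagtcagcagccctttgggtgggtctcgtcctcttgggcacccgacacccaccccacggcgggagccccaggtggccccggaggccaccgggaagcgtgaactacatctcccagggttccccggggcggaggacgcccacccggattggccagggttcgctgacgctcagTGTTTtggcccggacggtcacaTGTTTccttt
IRS1, chr2:226799821-226800070, minus strand: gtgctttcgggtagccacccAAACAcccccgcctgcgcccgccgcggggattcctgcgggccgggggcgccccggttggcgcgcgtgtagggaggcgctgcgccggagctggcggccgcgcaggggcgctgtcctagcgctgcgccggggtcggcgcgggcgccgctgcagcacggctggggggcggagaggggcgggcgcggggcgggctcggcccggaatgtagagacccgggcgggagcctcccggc
INSR, chr19:7294415-7294664, minus strand: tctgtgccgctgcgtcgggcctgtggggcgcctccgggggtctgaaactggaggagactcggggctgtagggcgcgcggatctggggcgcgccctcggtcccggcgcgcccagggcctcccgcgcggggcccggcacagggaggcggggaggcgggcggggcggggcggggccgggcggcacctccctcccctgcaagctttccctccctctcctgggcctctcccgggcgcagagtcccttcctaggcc

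The window of KLHL24 held 4 copies of AAACA on either strand, that of IRS1 held 1, and those of CCNG2 and INSR held 0. Over 35116 promoters of the same length, 40.4% held at least 1 copy and 1.77% held at least 4. The full motif GTAAACA, or TGTTTAC on the other strand, which contains AAACA, stood in 2.98% of the promoters. All 10 genes had an entry, with 14 start sites. AAACA was found at 7 of the 10 genes and GTAAACA at 1, TXNIP, where a match at any start site counted. The shares above are per promoter, so these counts per gene cannot be set against them. These matches describe the letters of the windows and are not measurements of binding.

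Gene positions below are those of GENCODE release 29 on GRCh38. Among the FOXO factors themselves, none was called with all 6 libraries. FOXO1 (chr13:40469953-40666597, minus strand), a factor with a central role in insulin signaling, had 10.3, 9.95 and 15.3 CPM in DMSO replicates 1, 2 and 3, and 13.8, 16.4 and 14.2 CPM in erianin replicates 1, 2 and 3. The groups overlapped through DMSO replicate 3, which lay above 2 of the erianin libraries. The log2 fold change of FOXO1 was 0.32 ± 0.18 (SE, n = 3 per group; edgeR, adjusted p = 0.279). Without DMSO replicate 3 it was 0.54 ± 0.10 (edgeR, adjusted p = 4.34e-05), past both thresholds.

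FOXO3 (chr6:108559835-108684774, plus strand), a factor linked to stress resistance and cell death, had 34.4, 33.8 and 44.5 CPM in the DMSO libraries and 47.4, 47.4 and 48.7 CPM in the erianin libraries. Each erianin library was above every DMSO library, with DMSO replicate 3 nearest to them. Its log2 fold change was 0.35 ± 0.12 (SE, n = 3 per group; edgeR, adjusted p = 0.0954), and 0.49 ± 0.06 without DMSO replicate 3 (edgeR, adjusted p = 7.34e-08), still under the fold threshold. Without that library 17.5% of all genes were called and 55.2% had an adjusted p under 0.05. Of the 50-base stretches in annotated transcripts of FOXO3, 15.7% also occur in FOXO3B, a near-identical copy annotated as a processed pseudogene. Of the stretches of FOXO3B, 64.2% occur in FOXO3. Part of the reads of either gene could therefore have been assigned to the other or dropped, and how many FOXO3B counts came from FOXO3 was not tested. FOXO3B had 7.60, 10.0 and 11.3 CPM in the DMSO libraries and 12.2, 11.6 and 10.8 CPM in the erianin libraries, with a log2 fold change of 0.26 (edgeR, adjusted p = 0.321).

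FOXO4 (chrX:71096197-71103535, plus strand) had 21.6, 22.3 and 18.4 CPM in the DMSO libraries and 20.4, 21.6 and 18.6 CPM in the erianin libraries. The groups overlapped throughout. The log2 fold change was -0.04 ± 0.12 (SE, n = 3 per group; edgeR, adjusted p = 0.857). Its sign turned with the scaling, to 0.15 on log2(TPM + 1) values. FOXO6, the remaining family member, had 2.57 to 2.96 CPM with DMSO and 2.46 to 2.71 CPM with erianin (log2 fold change -0.07; edgeR, adjusted p = 0.793).

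DMSO replicate 3 deviated from the mean of the other DMSO libraries by 0.59 on the log2 scale for FOXO1, 0.39 for FOXO3 and -0.26 for FOXO4. For the other tested members its deviation lay between -0.13, at CCNG2, and 0.09, at KLHL24. The ratio of FOXO3 to FOXO4 TPM, in which the scaling of the library cancels, was 0.519, 0.494 and 0.792 in the DMSO libraries and 0.760, 0.716 and 0.855 in the erianin libraries. The groups overlapped, again through DMSO replicate 3 (exact permutation test, two-sided, p = 0.3, adjusted p = 0.525 over the 7 ratios computed).

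**Figure D2:**
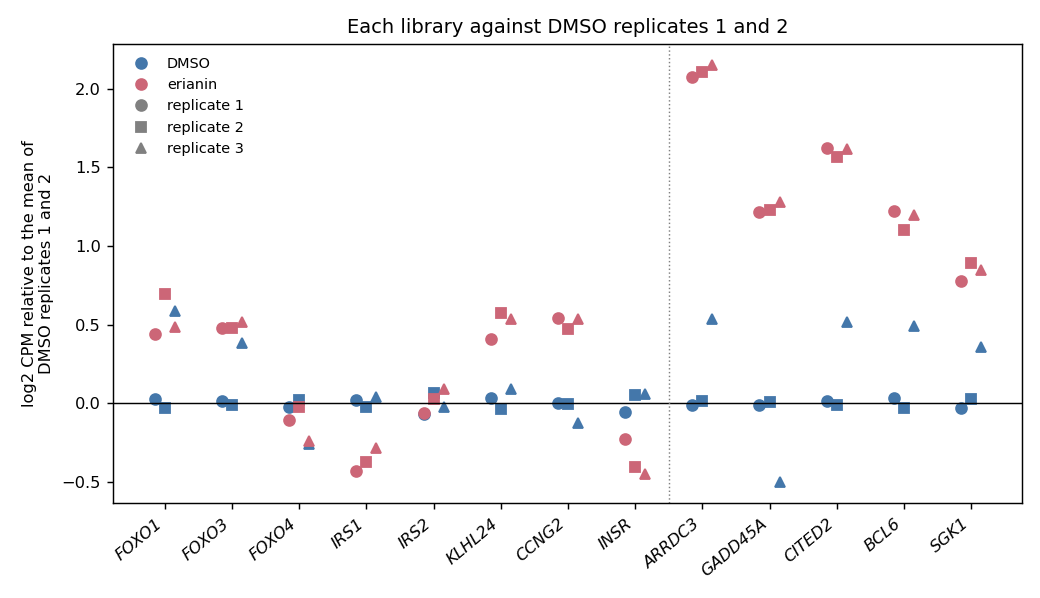
Log2 CPM of each library (y axis) relative to the mean of DMSO replicates 1 and 2, for the 8 tested members left of the dotted line and 5 genes of the other lists right of it, DMSO in blue and erianin in red. For FOXO1 and FOXO3 the blue triangle of DMSO replicate 3 lies at 0.59 and 0.39, near the erianin libraries, whereas for IRS1, IRS2, KLHL24 and INSR it lies between -0.03 and 0.09.

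INSR, IRS1 and IRS2 carry the insulin signal to PI3K. INSR (chr19:7112255-7294034, minus strand), the insulin receptor, had 32.6, 35.0 and 35.2 CPM in the DMSO libraries and 28.9, 25.5 and 24.7 CPM in the erianin libraries. All erianin libraries were below all DMSO libraries. The log2 fold change was -0.38 ± 0.10 (SE, n = 3 per group; edgeR, adjusted p = 0.0403), a level 23.0% lower. On log2(TPM + 1) values, where the median of all genes rose to 0.18, it was -0.16 (limma, adjusted p = 0.205). The related receptor gene IGF1R had 76.2 to 77.8 CPM with DMSO and 77.9 to 83.3 CPM with erianin (log2 fold change 0.08; edgeR, adjusted p = 0.489).

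IRS1 (chr2:226731317-226799759, minus strand), an adaptor that links the receptors to PI3K, had 57.3, 55.5 and 57.9 CPM in the DMSO libraries and 41.9, 43.5 and 46.3 CPM in the erianin libraries. All DMSO libraries were above all erianin libraries, and each group varied by less than the gap between them. The log2 fold change was -0.37 ± 0.08 (SE, n = 3 per group; edgeR, adjusted p = 0.0215), and -0.17 on log2(TPM + 1) values (limma, adjusted p = 0.15). Without DMSO replicate 1, DMSO replicate 2 or any 1 erianin replicate, the adjusted p by edgeR was 0.057 to 0.11 for IRS1 and 0.0767 to 0.184 for INSR, with the direction kept. Over all genes 126 to 312 were called lower in those fits, against 431 with all 6 libraries.

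IRS2 (chr13:109752698-109786568, minus strand), its paralog and a known target of FOXO factors, had 52.0, 56.9 and 53.5 CPM in the DMSO libraries and 52.1, 55.6 and 58.1 CPM in the erianin libraries. The groups overlapped, and the log2 fold change was 0.03 ± 0.08 (SE, n = 3 per group; edgeR, adjusted p = 0.853). The ratio of IRS2 to IRS1 TPM was 1.14, 1.29 and 1.16 in the DMSO libraries and 1.56, 1.60 and 1.57 in the erianin libraries. Every erianin library had the higher ratio (exact permutation test, two-sided, p = 0.1, the smallest that 3 against 3 libraries allow, adjusted p = 0.233 over the 7 ratios). IRS4 had 0 counts in 5 libraries and 3 in erianin replicate 3.

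Of the target genes with other roles, CCNG2 (chr4:77157151-77433388, plus strand), an atypical cyclin associated with cell cycle arrest, had 26.0, 25.9 and 23.8 CPM in the DMSO libraries and 37.7, 36.0 and 37.6 CPM in the erianin libraries. The groups were well apart, with the lowest erianin library above all DMSO libraries. The log2 fold change was 0.56 ± 0.09 (SE, n = 3 per group; edgeR, adjusted p = 0.00832). Without any 1 of the erianin replicates the call was lost (log2 fold change 0.53 to 0.58; edgeR, adjusted p between 0.0529 and 0.0623). In those fits 172 to 184 of all genes were called higher, against 688 with all 6 libraries. The call was also lost when each library's trend on transcript GC content was removed (log2 fold change 0.41; edgeR, adjusted p = 0.0331). The annotated transcripts of CCNG2 had a GC content of 43.1%, and the part of GC content in the result was not tested beyond that fit.

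KLHL24 (chr3:183635568-183684477, plus strand), a substrate adaptor of a cullin ubiquitin ligase, had 49.3, 46.8 and 51.1 CPM in the DMSO libraries and 63.8, 71.6 and 69.5 CPM in the erianin libraries. All erianin libraries were above all DMSO libraries. The log2 fold change was 0.48 ± 0.08 (SE, n = 3 per group; edgeR, adjusted p = 0.0119), which is 39.1% higher. It passed both thresholds without DMSO replicate 3 (0.50; edgeR, adjusted p = 1.28e-08) and with upper-quartile factors (0.53; edgeR, adjusted p = 0.00919), and fell short of the fold threshold with the GC trend removed (0.34; edgeR, adjusted p = 0.0203). Without any 1 erianin replicate the adjusted p was 0.0542 to 0.079, in the fits where calls over all genes fell as given for CCNG2.

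SESN3 (chr11:95165513-95232541, minus strand), a sestrin that restrains mTORC1, was near the detection limit, with 5, 6 and 6 counts in the DMSO libraries and 12, 12 and 8 counts in the erianin libraries. All erianin counts were above all DMSO counts. Without the low-count filter the adjusted p of SESN3 was 0.496 by edgeR, so that no difference was detectable at this depth. Its paralog SESN1 had 1.11, 1.69 and 1.22 CPM in the DMSO libraries and 2.05, 3.46 and 2.48 CPM in the erianin libraries (log2 fold change 0.98 ± 0.27; edgeR, adjusted p = 0.0501). SESN2, the most abundant sestrin gene, had 72.4 to 96.2 CPM with DMSO and 87.0 to 90.3 CPM with erianin (log2 fold change 0.08; edgeR, adjusted p = 0.676).

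**Figure D3:**
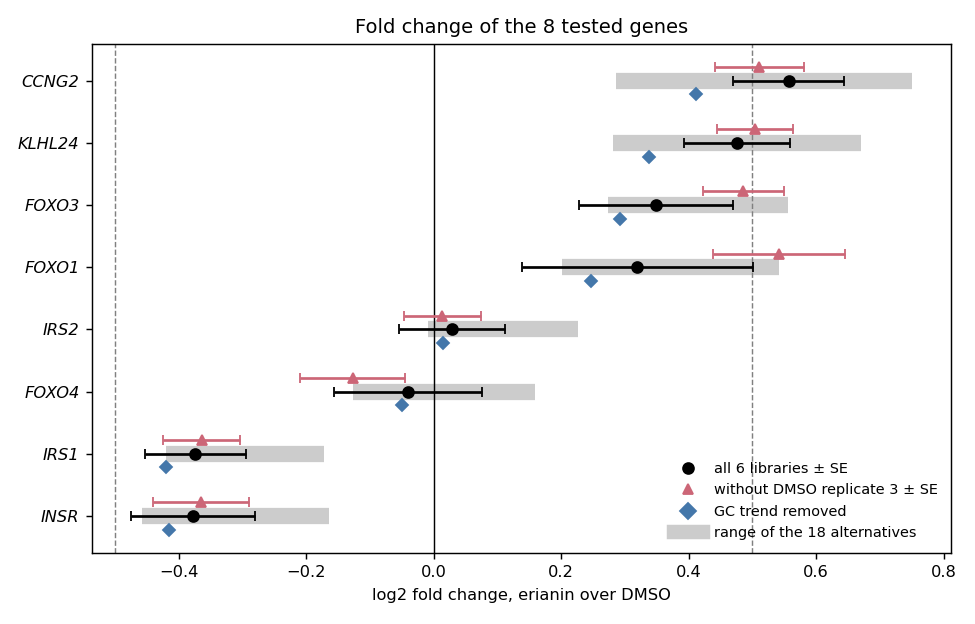
Log2 fold change, erianin over DMSO (x axis), of the 8 tested members, with the value from all 6 libraries in black, that without DMSO replicate 3 in red (bars: SE), that with the GC trend removed in blue, and in grey the range over the 18 alternatives. Dashed lines mark a log2 fold change of 0.5 in either direction, and CCNG2 at 0.56 is the 1 black point beyond them.

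Compared per gene length, IRS2 was the most abundant member in every library, with a mean of 42.5 TPM, and IRS1 the next with 30.9 TPM. FOXO4 had a mean of 23.1 TPM and KLHL24 20.2 TPM, and FOXO4 was above KLHL24 in 4 of 6 libraries. FOXO3 (15.8 TPM) was above CCNG2 (15.3 TPM) in 3 of 6 libraries, so that their order was not set. CCNG2 was above FOXO1 (11.0 TPM) in 5 libraries, and FOXO1 above INSR (10.1 TPM) in 4. SESN3 was lowest in every library, with a mean of 0.110 TPM.

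**Figure D4:**
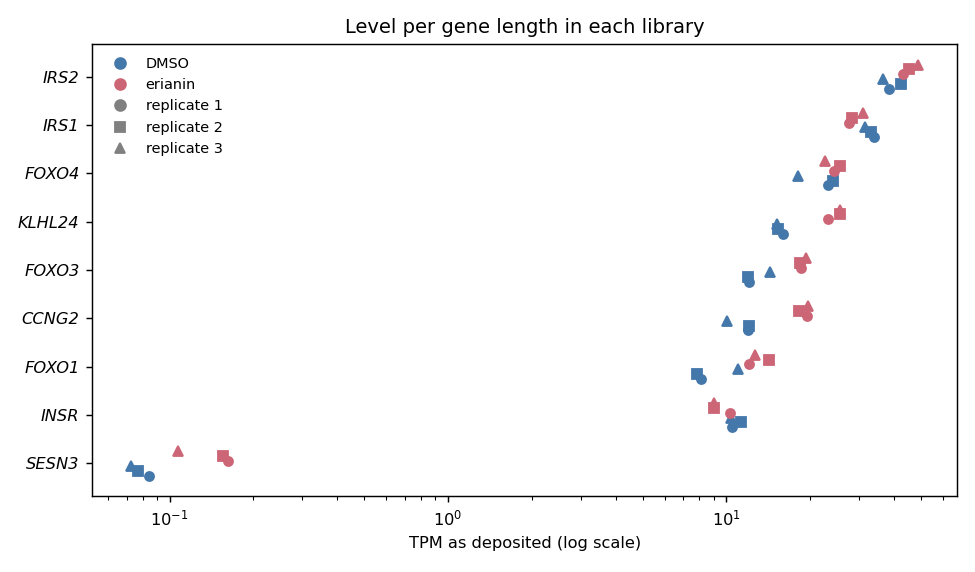
Deposited TPM (x axis, log scale) of the 9 measured members in each library, ordered by the mean, with DMSO in blue and erianin in red. IRS2 and IRS1 lead in all 6 libraries and SESN3, with a mean of 0.110 TPM, lies far to the left of the other genes.

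A list of 43 other known FOXO targets was counted in the same fit. The list was not split into targets that FOXO factors activate and targets that they repress. Of its 43 genes 34 were tested, and 5 were called higher and 1 lower, where 5.37% and 3.36% of all genes were. Over these 34 genes the median log2 fold change was 0.23, and 26 lay above zero, as did 50.3% of all genes. With the adjusted p alone 8 were higher and 3 lower, against 7.22% and 7.69% of all genes. The 9 genes below the filter, among them PCK1, G6PC1 and IGFBP1, genes known from liver, did not exceed 0.401 CPM in any library.

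CITED2, which binds the coactivators CBP and p300, rose from 19.7, 19.4 and 27.9 CPM to 60.1, 57.7 and 59.9 CPM (log2 fold change 1.41; edgeR, adjusted p = 0.00273). GADD45A, a growth arrest gene, rose from 135, 137 and 95.8 CPM to 316, 319 and 329 CPM (log2 fold change 1.39; edgeR, adjusted p = 0.00205). In both genes the erianin libraries lay close together and DMSO replicate 3 apart from the other DMSO libraries, above them in CITED2 and below them in GADD45A. Both had an adjusted p under 0.05 in all 18 alternatives. BCL6, a transcriptional repressor, rose by 0.99 on the log2 scale (edgeR, adjusted p = 0.00747), and PDK4, a kinase that inhibits pyruvate dehydrogenase, by 0.95 (edgeR, adjusted p = 0.00805). MAP1LC3B, a protein of the autophagosome membrane, rose by 0.50 (edgeR, adjusted p = 0.00463), just past the fold threshold, and was under it by DESeq2 (0.49) and with the GC trend removed (0.45). KLF2, a Krüppel-like transcription factor, fell by 0.57 (edgeR, adjusted p = 0.0127), from 53.7, 56.3 and 63.6 CPM to 36.5, 38.1 and 42.4 CPM, and had -0.37 on log2(TPM + 1) values, under the fold threshold. With a library left out, the adjusted p by edgeR was under 0.05 in 4 of 6 fits for BCL6 and for PDK4, and in 3 of 6 for KLF2. It reached 0.0525 for BCL6, 0.0573 for PDK4 and 0.0774 for KLF2.

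Some cell cycle and growth genes of this list passed the adjusted p alone. CCND1, a G1 cyclin, had a log2 fold change of -0.45 (edgeR, adjusted p = 0.00901), and EIF4EBP1, an inhibitor of translation initiation, one of -0.39 (edgeR, adjusted p = 0.0131). PMAIP1, a BH3-only gene, had 0.37 (edgeR, adjusted p = 0.0145). The remaining 2 genes, named after their values were seen, were CDKN1B, a CDK inhibitor, with 0.35 (edgeR, adjusted p = 0.0246), and KLF6 with 0.27 (edgeR, adjusted p = 0.035).

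Upstream of FOXO, 26 of 28 listed genes of insulin and PI3K signaling were tested, and 3 were called higher and 0 lower, which is 11.5% called against 8.73% of all genes. In the lower direction 6 genes had an unadjusted p under 0.05 by edgeR, as did 15.6% of all genes, and DESeq2 called 0 of them. Over the 26 genes the median log2 fold change was 0.06. SGK1, a kinase that phosphorylates FOXO3, rose from 27.3, 28.3 and 35.6 CPM to 47.7, 51.6 and 50.0 CPM (log2 fold change 0.71; edgeR, adjusted p = 0.0105). SGK3 rose by 0.54 (edgeR, adjusted p = 0.0282), a call that was lost with the GC trend removed (0.35; edgeR, adjusted p = 0.14). Another called gene was PIK3R3, a regulatory subunit of PI3K, with a log2 fold change of 0.74 (edgeR, adjusted p = 0.0311). For PIK3R3 the levels were 2.05 to 2.59 CPM with DMSO and 3.54 to 4.63 CPM with erianin. Without any 1 of the erianin replicates 0 genes of this list were called by edgeR. Calls among all genes fell as well, to 172 to 184 higher and 126 to 144 lower, from 688 and 431 with all 6 libraries.

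The 4 genes of this list that were lower by the adjusted p alone were INPPL1, a lipid phosphatase (log2 fold change -0.35; edgeR, adjusted p = 0.0192), and, named after their values were seen, MLST8, AKT2 and PIK3CD, with log2 fold changes of -0.45, -0.39 and -0.39. AKT2 had 226, 245 and 187 CPM in the DMSO libraries and 167, 167 and 165 CPM in the erianin libraries (edgeR, adjusted p = 0.0421). PTPN1, a phosphatase acting on the insulin receptor, and MAPKAP1, a subunit of mTORC2, did not pass, with log2 fold changes of 0.02 and -0.18.

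The list of FOXO regulators held 28 genes, FOXO6 itself and others whose products bind or modify FOXO proteins. Of these 27 were tested and 0 were called by edgeR or by DESeq2. An unadjusted p under 0.05 was found for 5 of them, all higher with erianin, as it was in that direction for 15.3% of all genes. Their median log2 fold change was -0.02. The most abundant were the 14-3-3 genes SFN, YWHAG and YWHAE, with log2 fold changes of 0.01, 0.14 and -0.12 (edgeR, adjusted p = 0.972, 0.241 and 0.466).

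**Figure D5:**
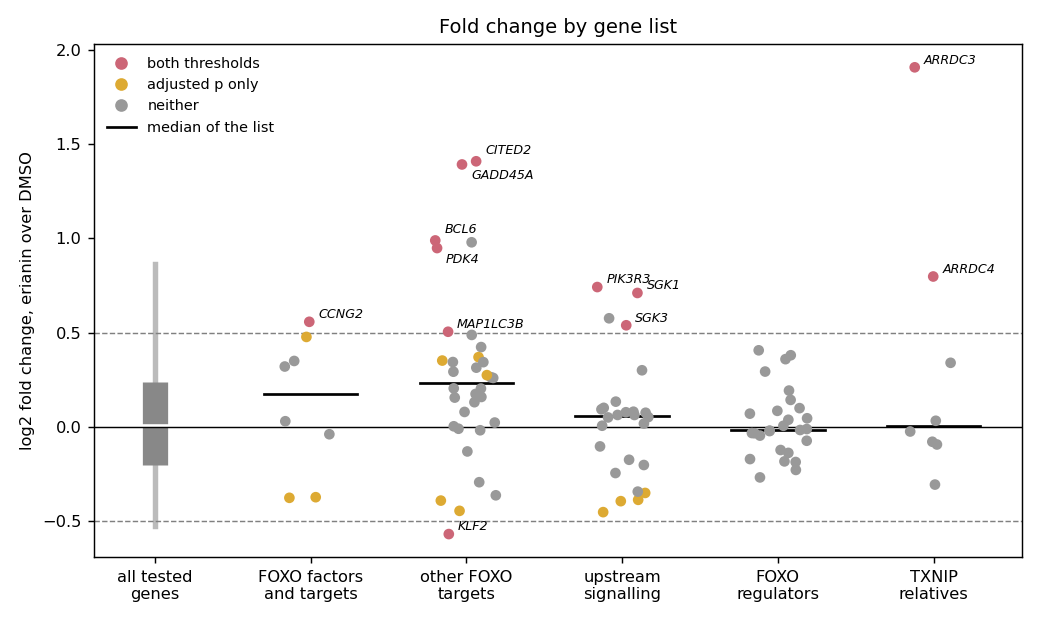
Log2 fold change, erianin over DMSO (y axis), of every tested gene in each list, colored by whether it passed both thresholds, the adjusted p alone or neither, with the median of each list as a line. The grey box and bar at left span the 25th to 75th and 5th to 95th percentiles of all 12821 tested genes, and ARRDC3 at 1.91 lies highest.

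TXNIP belongs to the alpha-arrestins, adaptor proteins of membrane transporters and receptors, and its relatives and partners were counted in the same fit. Of 8 tested genes 2 were called higher and 0 lower, where 5.37% and 3.36% of all genes were, and in the lower direction 0 had an unadjusted p under 0.05 by edgeR, against 15.6% of all genes, and DESeq2 called 0. ARRDC3 rose from 17.9, 18.2 and 26.2 CPM to 76.0, 77.9 and 80.3 CPM (log2 fold change 1.91 ± 0.16, n = 3 per group; edgeR, adjusted p = 0.00105), and had an adjusted p under 0.05 in all 18 alternatives. ARRDC4 rose from 9.20, 9.92 and 11.9 CPM to 17.9, 18.3 and 17.7 CPM (log2 fold change 0.80; edgeR, adjusted p = 0.00788). With a library left out, the adjusted p of ARRDC4 by edgeR was under 0.05 in 3 of 6 fits and at most 0.0565. In both genes every erianin library was above every DMSO library.

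The paralogs ARRDC1 and ARRDC2 had log2 fold changes of -0.31 and -0.09 (edgeR, adjusted p = 0.179 and 0.706), and ARRDC5 had at most 2 counts in a library. Thioredoxin, TXN, to which TXNIP binds, had 0.34 (edgeR, adjusted p = 0.0884), and MLXIP, a glucose-responsive transcription factor, -0.08 (edgeR, adjusted p = 0.504). With a library left out, ARRDC1, ARRDC2 and TXN each had an adjusted p under 0.05 in 1 of 6 fits (edgeR, 1.02e-09, 0.00332 and 0.00013), and MLXIP in 0. GTAAACA or its reverse complement, in capitals, stood before a start site of TXNIP and of ARRDC3, shown here because ARRDC3 had the largest fold change among the listed genes. No such match stood in the window of the other start site of ARRDC3 or in that of ARRDC4. Outside the members, the windows of the other called genes were not looked at singly. Whether such a match goes with a higher level was therefore not tested. The TXNIP and ARRDC3 windows shown are from RefSeq on GRCh38.p14 and written on the minus strand, that of the genes.
TXNIP, chr1:145996687-145996713: cgggctcctgGTAAACAaggaccgggc
ARRDC3, chr5:91380110-91380136: gcccggcactTGTTTACcacggcgcgg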

How the data were processed

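Total RNA of 6 CAL62 libraries was sequenced by the authors on the BGISEQ-500 platform. Raw counts of reads on genes were deposited by the authors, as were TPM values of the same libraries. The submitters' processing notes name fastp 0.23.2, STAR 2.7.10, featureCounts 2.0.1, StringTie 2.2.1 and GRCh38; the annotation and the strand setting are not given in the sources used here, so overlapping or near-identical genes may share reads. The TPM columns sum to 59.1% to 78.3% of their nominal total, lowest in DMSO replicate 3.

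Of 65807 rows, 26480 without an identifier, holding 0.00385% to 0.00515% of the counts, were left out. Identifiers were matched to symbols in the reference table, 38259 of 39168, with 73 more named from GENCODE release 29 on GRCh38, which also gave coordinates and GC content. Of rows sharing an identifier the one with most counts was used. Promoters came from RefSeq on GRCh38.p14.

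Counts of all 6 libraries were fitted with edgeR 4.0.16 (TMM, filterByExpr, glmQLFit, glmQLFTest, no replicate term) in R 4.3.3, with Benjamini-Hochberg adjustment over 12821 genes. The study's DEG thresholds were used, an adjusted p of 0.05 and a log2 fold change of 0.5 in either direction. Standard errors came from the F statistic. The 7 ratios were compared by exact permutation of libraries. Alternatives were DESeq2 1.42.0, RLE and upper-quartile factors, no low-count filter, a minimum of 10 counts in all libraries, limma 3.58.1 on log2(TPM + 1) or log2(TPM + 0.1) with a mean of at least 1 TPM or no filter, a replicate block, a loess GC offset (span 0.5), both together, each library left out and other fold thresholds. The GC offset without DMSO replicate 3 was added after seeing the data. On simulated counts edgeR recovered 200 of 200 changed genes and called 5 unchanged genes over 12807. With a GC trend added, 2152 unchanged genes were called without the offset and 2 with it, over 12881 genes. The simulated libraries had an equal spread and no outlying library, and the set fold change was larger than that of any member. The added GC trend was of a chosen size and in the erianin libraries only. These counts therefore do not give error rates in the measured data. Recovery was counted over all changed genes together, and recovery at fold changes as small as those of the members was not tested.

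The members and lists were chosen with earlier results of these data known. Named were all members, up to 6 called genes of each list by adjusted p, up to 3 others by mean TPM, and paralogs of members. Figures were drawn with matplotlib 3.10.9 in Python 3.11.15.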

Additional observations from a re-analysis of the deposited data

How the results depend on the processing

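The count of members called higher, 1 with all 6 libraries, was 0 with the GC offset, alone, with the replicate block or without DMSO replicate 3, and at an absolute log2 fold change over 1. It was 2 with upper-quartile factors or no fold threshold (then 2 lower as well) and 3 by limma at either TPM pseudocount or without the filter. With each library left out it ranged from 0 to 3, with 0 lower throughout. The higher end came without DMSO replicate 3, and 0 came without any 1 erianin replicate.

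On the TPM scale the calls of all genes were 1098 higher and 94 lower, 1207 and 110 with the smaller pseudocount, and 1057 and 88 without the filter, against 688 and 431 by edgeR. FOXO regulators called were then 2, 3 and 2, and upstream genes 1 at a pseudocount of 1. The split by upper-quartile factors was 822 and 299. The GC offset gave 679 lower genes, and 800 without DMSO replicate 3. With no fold threshold 986 genes were lower, with 7 upstream genes and 11 other targets, and at a threshold of 1 there were 324 higher and 28 lower, with 0 upstream genes, 2 other targets and 1 TXNIP relative.

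With a library left out, all genes called ranged from 172 to 1485 higher and 126 to 797 lower, upstream genes from 0 to 6, FOXO regulators from 0 to 1, other targets from 3 to 9 and TXNIP relatives from 1 to 2. The upper ends for all genes, upstream genes, FOXO regulators and other targets came without DMSO replicate 3. The lower ends came without an erianin replicate, and for FOXO regulators also without DMSO replicate 1 or 2. The causes were not tested.

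The replicate numbers did not pair the samples (correlations of deviations 0.00138, 0.0253 and -0.0329). The replicate block gave 384 higher and 281 lower genes and 1 upstream gene, also 1 with the GC offset. Among the genes followed singly under the alternatives, none past a threshold with all 6 libraries changed sign. CDKN1B, KLF6, MLST8, AKT2, PIK3CD and the cell type markers were not followed in this way. The sign did change under some alternatives for FOXO4, IRS2, PTPN1, MAPKAP1, SFN, YWHAE, TXN, MLXIP, SESN2, FOXO6 and ARRDC2, which passed none. Of the single-gene results under the alternatives, 594 kept their side of the thresholds, 20 came to pass them and 50 no longer did.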
